A study of Mus musculus with 5 samples.

Results

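Cathepsins are the proteases of endosomes and lysosomes. Most are made as inactive precursors, carried to the lysosome by mannose 6-phosphate receptors and activated at acid pH, where they degrade proteins and, in antigen-presenting cells, cut the invariant chain and trim peptides for MHC class II molecules. They belong to separate catalytic families that use a cysteine, an aspartate or a serine in the active site. Cystatins and some serpins inhibit them. In plasmacytoid dendritic cells (pDCs), B cells and myeloid cells they also process endosomal Toll-like receptors and granule enzymes.

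The genes described here are Ctsl, Ctsb, Ctss, Ctsh, Ctsc, Ctsz, Ctsd, Ctse and Ctsa, taken by symbol from the transcript table. These 9 symbols had 10 rows among 26531 transcripts of 22098 symbols, since Ctsa had 2 RefSeq entries. The set was chosen by gene family with the RPKM of these libraries known, among them the low Ctsl level in dF4, so the differences of dF4 are given as a description.

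RNA was sequenced from 5 libraries of bone marrow cells of C57BL/6 mice aged 6 to 7 weeks, sorted as Hardy fraction A, an early B lineage fraction, without prior depletion of other lineages. There was 1 library of Ikaros_ZnF4-/- cells (dF4, lacking zinc finger 4 of the transcription factor Ikaros), which the design text describes as low in coverage, 2 of Ikaros_ZnF1-/- cells (dF1, lacking zinc finger 1) and 2 of wt cells. The cells were primary and untreated. The design text names the dF1 libraries as biological replicates, and the origin of the wt pair is not spelled out, so the spread behind each p-value may be partly technical. By its title the study asked about effects of Ikaros on several blood lineages.

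Several features of the libraries bear on every value below. The sum of RPKM (a read density corrected for transcript length and library size) was 345446 in dF4, 298855 and 307910 in dF1 and 286080 and 306100 in wt. Low values of dF4 fell on whole reads for 80.8% of 2064 values (within 0.1 read), which puts that library at an estimated 600258 reads, while the depth of the others could not be resolved. Ikzf1 was at 237.7 RPKM in dF4, 182.2 and 182.1 in dF1 and 175.8 and 141.1 in wt, a value over the whole transcript that does not check a missing finger. On log2(RPKM + 1) the correlation across 12213 transcripts was 0.740 to 0.774 between dF4 and the other libraries and 0.965 to 0.983 among the dF1 and wt libraries. The libraries also differed in sex. Xist, expressed in females, was listed at 0 in dF4, was at 93.2 RPKM in dF1 replicate 1 and listed at 0 in replicate 2, and was at 77.7 and 83 RPKM in wt. Eif2s3y, a gene of the Y chromosome, was at 41.4 RPKM in dF4, listed at 0 in dF1 replicate 1 and at 37.5 RPKM in replicate 2, and listed at 0 in wt. Sex and genotype thus cannot be told apart between dF4 and wt. By the same genes, dF1 replicate 2 differed in sex from dF1 replicate 1 and from both wt libraries. The spread within dF1 and the comparison of dF1 with wt therefore also include a difference of sex.

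The labels call the cells proB cells, while markers of several other cell types were also high. The 14 pDC markers summed to 1047.5 RPKM in dF4, 5341 and 5980 in dF1 and 6055 and 7063 in wt, and in dF4 Cd300c, Klk1 and Cox6a2 were listed at 0. Conventional dendritic cell markers (9 genes) summed to 103.6 RPKM in dF4, 469.6 and 508.7 in dF1 and 558.2 and 573.5 in wt. Of the 8 that averaged 1 RPKM or more, 6 were lower in dF4 than the wt mean and 2 higher. The early B lineage markers (10 genes) summed to 1332 RPKM in dF4, 386 and 390.5 in dF1 and 510.5 and 331.9 in wt. The neutrophil markers (12 genes) summed to 33764 RPKM in dF4, 214.5 and 858.3 in dF1 and 407.8 and 1098 in wt. Monocyte and macrophage markers (12 genes) summed to 1422 RPKM in dF4, 274.2 and 253.9 in dF1 and 233.2 and 123 in wt. Lyz2 made up most of that dF4 sum, at 1124 RPKM there, 9.9 and 37.7 in dF1 and 33.7 and 40.2 in wt. Of the 12 genes, 10 were higher in dF4 than the wt mean. The 2 lower ones, Ly6c2 and Ccr2, lay between the wt libraries in dF4. Erythroid markers (8 genes) summed to 1297 RPKM in dF4, 17.8 and 60.3 in dF1 and 27 and 68.3 in wt. In a bulk sample, fewer cells of a type and less RNA per cell cannot be told apart, and the part of these shifts in the cathepsin values was not tested.

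The 3 catalytic families can be seen in the coding sequence around the active site. The stretches below are 45 bases of coding sequence, 5′ to 3′, from the GENCODE M21 transcript that matches each RefSeq entry, with the codon of the catalytic residue in capitals. The first 6 use a cysteine.
Ctsl: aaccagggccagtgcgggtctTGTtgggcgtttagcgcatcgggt
Ctsb: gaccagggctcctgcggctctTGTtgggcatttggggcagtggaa
Ctss: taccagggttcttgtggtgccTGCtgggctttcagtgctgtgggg
Ctsh: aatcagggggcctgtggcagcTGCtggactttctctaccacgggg
Ctsc: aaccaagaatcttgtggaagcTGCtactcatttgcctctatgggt
Ctsz: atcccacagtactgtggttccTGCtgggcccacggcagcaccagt
Ctsd and Ctse use aspartates, of which the first in the protein is marked, and Ctsa uses a serine.
Ctsd: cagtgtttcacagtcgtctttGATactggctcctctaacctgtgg
Ctse: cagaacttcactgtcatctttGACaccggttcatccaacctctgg
Ctsa: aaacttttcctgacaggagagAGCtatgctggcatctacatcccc

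Among the cysteine family these stretches shared 19 to 33 of 45 bases, with Ctsl and Ctsb the closest pair and Ctsb and Ctsz the most distant. In GRCm38 the marked codon of Ctsl lies at chr13:64367075-64367077 on the minus strand, in exon 5 of 8. That of Ctsb lies at chr14:63135717-63135719 (plus strand, exon 4 of 10), that of Ctss at chr3:95545348-95545350 (plus, exon 5 of 8) and that of Ctsh at chr9:90064522-90064524 (plus, exon 6 of 12). That of Ctsc lies at chr7:88308027-88308029 (plus, exon 6 of 7) and that of Ctsz at chr2:174438196-174438198 (minus, exon 2 of 6). Among the others, the codon of Ctsd lies at chr7:142383479-142383481 (minus, exon 3 of 9), that of Ctse at chr1:131663371-131663373 (plus, exon 4 of 10) and that of Ctsa at chr2:164835243-164835245 (plus, exon 6 of 15). The deposited values were made on another build (mm9), and no coordinate of theirs is given.

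Sequence shared with other genes differed between the 9. None of the 36-base windows of the Ctsl, Ctss, Ctsc, Ctsz and Ctse transcripts occurred in a GENCODE transcript of another gene, on either strand. For Ctsh 1.07% did, for Ctsb 16.1% (nearly all in Fdft1, which overlaps it), for Ctsa 22.6% (in Neurl2 and Pltp, which overlap it) and for Ctsd 37% (in Gm49369). The Ctsa transcript searched has 2534 bases, against 3562 in the deposited entry, so its share may differ for the latter. The counting is not stated to use strand, so reads of Ctsa and Pltp, of Ctsb and Fdft1 and of Ctsd and Gm49369 cannot be fully separated. Pltp itself was at 37.3 RPKM in dF4, 229.4 and 160.4 in dF1 and 195.6 and 238.6 in wt. Fdft1 was far below Ctsb, at 2.9 RPKM in dF4, 8.3 and 10.7 in dF1 and 9.5 and 9.1 in wt. The second Ctsa row (NM_008906) held 0.5 RPKM in dF4, 0.3 and 0.7 in dF1 and 0.5 and 0.7 in wt, against 60.5 or more for NM_001038492, which is used below. How reads were split between rows is not given in the sources used here. Of 1677 symbols with several rows and a top row of at least 5 RPKM over the wt and dF1 libraries, 1213 had a lowest row below 10% of the top one.

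**Figure D1:**
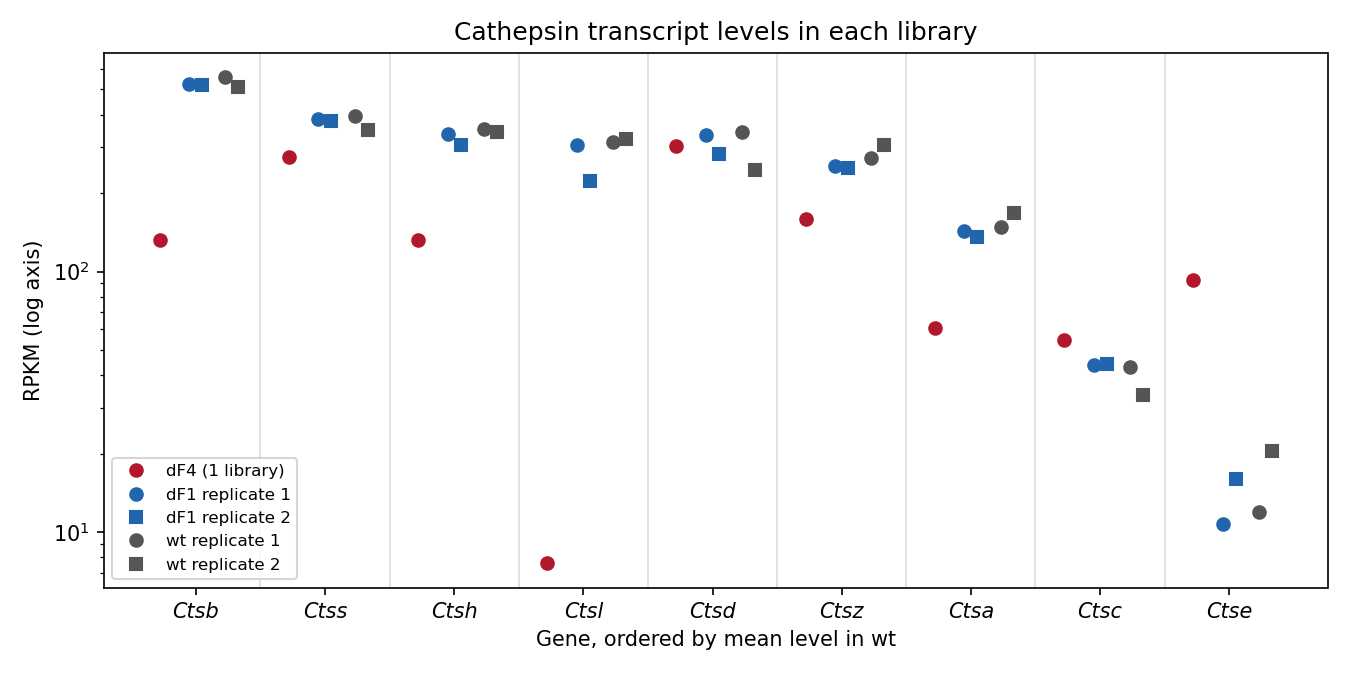
RPKM of the 9 cathepsins (log axis) in the dF4 library (red), the dF1 libraries (blue) and the wt libraries (grey), with circles for replicate 1 and squares for replicate 2. The dF4 point lies far below the others for Ctsl (7.6 RPKM), below them for Ctsb, Ctss, Ctsh, Ctsz and Ctsa, among them for Ctsd and above them for Ctsc and Ctse (92.8 RPKM).

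Most of the 9 cathepsins were among the more abundant transcripts of fraction A, with Ctsc and Ctse the least abundant. In wt, Ctsb ranked 34 and 36 among 26531 transcripts, Ctss ranked 51 in both libraries, and Ctsl, Ctsh, Ctsd and Ctsz all ranked between 54 and 91. Ctsa ranked 178 and 235 in wt, Ctsc 1523 and 1943 and Ctse 3463 and 5734. In dF4, Ctsl ranked 7440. Together the 9 genes summed to 1216 RPKM in dF4, 2337 and 2152 in dF1 and 2435 and 2302 in wt. That was 0.352% of all RPKM in dF4, 0.782% and 0.699% in dF1 and 0.796% and 0.805% in wt.

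Ordered by mean RPKM, which is per length, the wt levels ran Ctsb, Ctss, Ctsh, Ctsl, Ctsd, Ctsz, Ctsa, Ctsc and Ctse. The wt libraries of neighbours overlapped between Ctss and Ctsh, between Ctsl and Ctsd and between Ctsd and Ctsz, so these pairs cannot be ordered. In dF1 the order was the same except that Ctsd stood before Ctsl, and from Ctsh to Ctsz each neighbour overlapped the next. In the single dF4 library the order was Ctsd, Ctss, Ctsz, Ctsb, Ctsh, Ctse, Ctsa, Ctsc and Ctsl, so Ctsl stood last and Ctsd first. By their counting intervals in dF4, Ctsd and Ctss overlapped, as did Ctsb, Ctsh and Ctsz, Ctse and Ctsh, and Ctsa and Ctsc.

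Ctsl, an endopeptidase that cuts the invariant chain in some cells, showed the largest difference of the 9 in dF4. It was at 7.6 RPKM in dF4, 305 and 222.1 in dF1 and 314.6 and 323.5 in wt. The dF4 value rests on about 9 reads, with an exact 95% Poisson interval of 3.46 to 14.4 RPKM, and all 4 other libraries lay far above it. Ctsl was thus 42-fold lower in dF4 than the wt mean, a difference of -5.22 on the log2(RPKM + 1) scale. The interval, like all such intervals here, covers counting error only. In the same library Siglech, a pDC lectin, was at 5.5 RPKM, against 785.2 and 807.3 in dF1 and 936.2 and 838.4 in wt.

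Ctsb is an endopeptidase that also acts as an exopeptidase. It was at 132.4 RPKM in dF4 (95% interval 119.3 to 146.3), 525.6 and 517.7 in dF1 and 556.3 and 511.6 in wt. It was 4.03-fold lower in dF4 than the wt mean, with no overlap. Ctss, which makes the last invariant chain cut in B cells and dendritic cells, was at 274.3 RPKM in dF4 (239.1 to 312.1), 383.6 and 379.8 in dF1 and 393.7 and 349.9 in wt. Its dF4 value was the lowest of the 5, but only 1.36-fold below the wt mean. Among the cysteine endopeptidases the dF4 library therefore held 36.1 times as much Ctss as Ctsl by RPKM (exact 95% interval on the reads 18.7 to 80.1), against ratios of 1.26 and 1.71 in dF1 and 1.25 and 1.08 in wt.

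The exopeptidases Ctsh, Ctsz and Ctsc of the cysteine family differed less in dF4 than Ctsl and Ctsb did. The endopeptidase Ctss, at 1.36-fold, differed less than Ctsh and Ctsz. Ctsh, an aminopeptidase, was at 131.9 RPKM in dF4 (109.7 to 156.2), 336.2 and 306 in dF1 and 352.7 and 343.6 in wt, or 2.64-fold lower in dF4 than in wt. Ctsz, also called cathepsin X, a carboxypeptidase, was at 159.5 RPKM in dF4 (133.7 to 189), 254.3 and 248.9 in dF1 and 273.4 and 305.7 in wt, or 1.82-fold lower than in wt. Ctsc, the dipeptidyl peptidase that activates granzymes and neutrophil serine proteases, was at 54.8 RPKM in dF4 (43.8 to 68.4), 43.9 and 44.2 in dF1 and 42.9 and 33.7 in wt. Its dF4 value was the highest of the 5, but the lower end of its interval lay below both dF1 values.

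The aspartic proteases went separate ways. Ctsd, a major lysosomal endopeptidase, was at 302.5 RPKM in dF4 (271.6 to 335.2), 334.8 and 282.5 in dF1 and 341.7 and 246 in wt, so dF4 lay between the wt libraries. Ctse, an endosomal protease found in lymphoid cells, red cell precursors and stomach, was at 92.8 RPKM in dF4 (77.1 to 111.4), 10.8 and 16 in dF1 and 12 and 20.5 in wt. It was 5.71-fold higher in dF4 than the wt mean. Ctse was also higher in replicate 2 than in replicate 1 of both genotypes, by 0.53 in dF1 and 0.73 in wt on the log2 scale. Erythroid markers were higher in replicate 2 for 8 of 8 genes in dF1 and 7 of 8 in wt, and neutrophil markers for 12 of 12 in each. The same held for 10 of 14 pDC markers and 6 of 8 basophil and mast cell markers in each genotype. It held for 0 of 7 T cell markers in each, and for NK markers for 1 of 8 in dF1 and 0 of 8 in wt. For early B lineage markers it held for 6 of 10 in dF1 and 1 of 10 in wt. Over all 12213 transcripts tested, 6999 were higher in replicate 2 in dF1 and 4498 in wt. Of the erythroid markers, Epor and Klf1 were below 1 RPKM in each dF1 and wt library. The part of these markers' cell types in the Ctse values was not tested.

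Ctsa, the serine carboxypeptidase that also protects beta-galactosidase and neuraminidase, was at 60.5 RPKM in dF4 (50.4 to 71.7), 142.8 and 135.2 in dF1 and 147.9 and 167.7 in wt, or 2.61-fold lower in dF4 than in wt. The interval of dF4 stood below the lowest of the other libraries.

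A size rule was used to set these differences beside the rest of the transcripts. It counts a transcript when dF4 lies outside both libraries of the other group by at least 1 on the log2 scale from their mean, the spread of those libraries is at most 0.5 and the transcript averages at least 5 RPKM over all 5. The mean includes dF4, so a transcript can reach 5 RPKM through dF4 alone. Against wt, 10.4% of 7867 transcripts counted as lower and 7.75% as higher (818 and 610). Of the 8 cathepsins that could be counted, 4 were lower (Ctsl, Ctsb, Ctsh and Ctsa) and 0 higher. Ctse could not be counted, because its wt libraries lay 0.73 apart. After rescaling every library to the same sum, 1223 transcripts counted as lower and 428 as higher, the median of all tested transcripts lay at -0.19 in place of 0.02, and Ctsz also counted as lower. Over the 9 genes the median difference was -0.85, beside 0.02 over all tested transcripts. Against dF1, 10.3% of 8196 transcripts counted as lower and 7.21% as higher, and Ctsl, Ctsb, Ctsh and Ctsa again counted as lower. With the same rescaling, 1231 transcripts counted as lower than dF1 and 432 as higher, and the cathepsins counted as lower were 3. Ctsl was then no longer counted, at a difference of -5.22, because its dF1 libraries came to lie just over 0.5 apart, and the same held with each library centred on its median. In this comparison the differences were -4.93 for Ctsl, -1.97 for Ctsb, -1.28 for Ctsh, -1.19 for Ctsa, -0.65 for Ctsz, -0.48 for Ctss, -0.02 for Ctsd, 0.31 for Ctsc and 2.73 for Ctse. Both comparisons share the dF4 library, and dF4 has no replicate, so neither was tested.

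**Figure D2:**
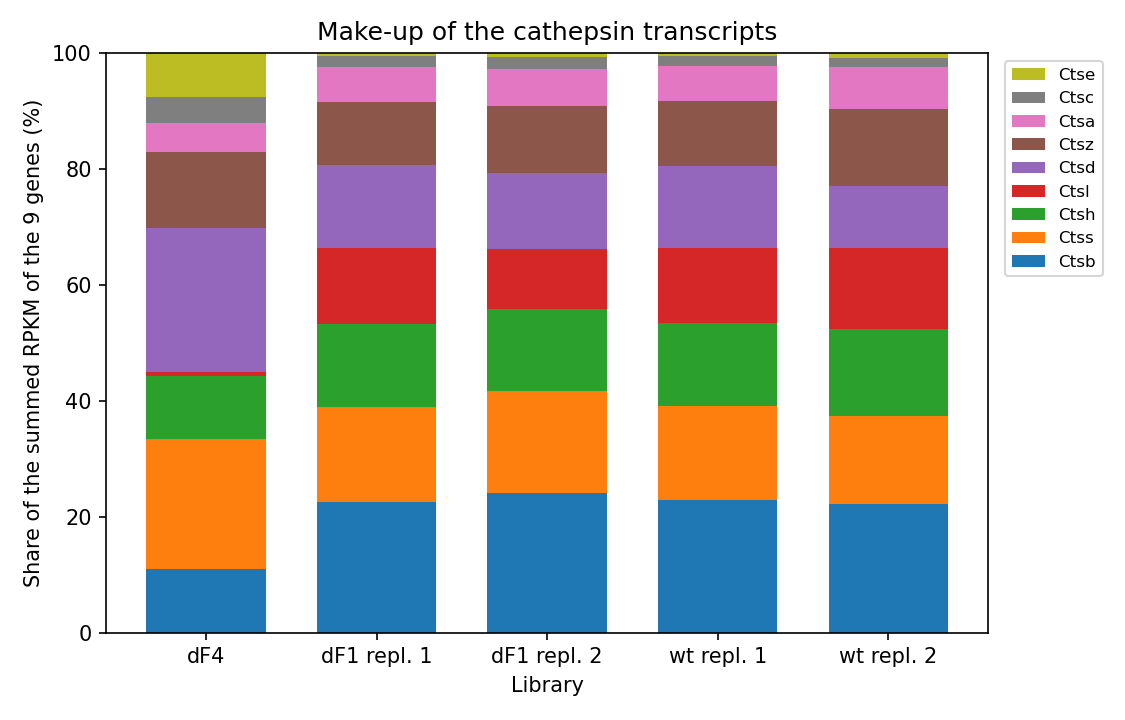
Share of the summed RPKM of the 9 cathepsins that each gene held, in percent, with 1 bar for dF4, 2 for dF1 and 2 for wt. The Ctsl segment is 0.625% in dF4 and 10.3% to 14.1% in the other libraries, while Ctsd and Ctss are the widest segments in dF4.

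The make-up of the cathepsin transcripts, which no constant factor on a library can change, also differed. Ctsl held 0.625% of the summed RPKM in dF4, 13.1% and 10.3% in dF1 and 12.9% and 14.1% in wt. Ctsd held 24.9% in dF4, 14.3% and 13.1% in dF1 and 14% and 10.7% in wt. The Ctsd level in dF4 (302.5 RPKM) lay between those in wt (341.7 and 246), so its larger share goes with the lower sum in dF4. Ctse held 7.63% in dF4, 0.462% and 0.743% in dF1 and 0.493% and 0.890% in wt. Ctsb held 10.9% in dF4, against 22.2% to 24.1% in the dF1 and wt libraries. In dF1, replicate 1 lay within the wt range of the Ctsl share and replicate 2 below it.

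Between dF1 and wt no cathepsin passed a test. Of the 9 genes, 0 passed limma's test across all transcripts (lowest adjusted p = 0.810), and 0 passed at an unadjusted p of 0.05. Over 12213 transcripts 0% were called, and 7.16% (875) had an unadjusted p under 0.05, 3.11% higher and 4.05% lower in dF1. Robust variances called 33 transcripts and a filter at 5 RPKM called 25, in both cases with 0 cathepsins among them. The median log2 fold change was -0.12 over the 9 genes and 0.01 over all tested transcripts.

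The gene furthest from 0 was Ctsl, at 263.5 ± 58.6 RPKM in dF1 and 319.1 ± 6.29 in wt (SD, n = 2 each). Its log2 fold change was -0.29 (SE 0.19, 95% interval -0.79 to 0.20, limma adjusted p = 0.810). It was -0.06 without dF1 replicate 2 and -0.52 without dF1 replicate 1. The dF1 replicates differed in sex by Xist and Eif2s3y, and the part of sex in this gap was not tested. For Ctsb the change was -0.03 (interval -0.43 to 0.37) and for Ctss 0.04 (-0.34 to 0.42), with overlapping libraries in both. Ctsh was at -0.12 (-0.48 to 0.24), Ctsz at -0.20 (-0.55 to 0.15) and Ctsc at 0.21 (-0.18 to 0.59). Ctsd was at 0.08 (-0.46 to 0.63), Ctse at -0.24 (-1.02 to 0.54) and Ctsa at -0.18 (-0.51 to 0.15). These intervals leave room for changes up to about the bounds given, so equal levels are not shown.

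In single libraries, both dF1 values lay below both wt values for Ctsl, Ctsh, Ctsz and Ctsa, and above them for Ctsc. Over all tested transcripts dF1 lay wholly below wt for 17.9% and wholly above for 16.9%. The nearest libraries were at 305 RPKM in dF1 and 314.6 in wt for Ctsl, 336.2 in dF1 and 343.6 in wt for Ctsh, and 43.9 in dF1 and 42.9 in wt for Ctsc.

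**Figure D3:**
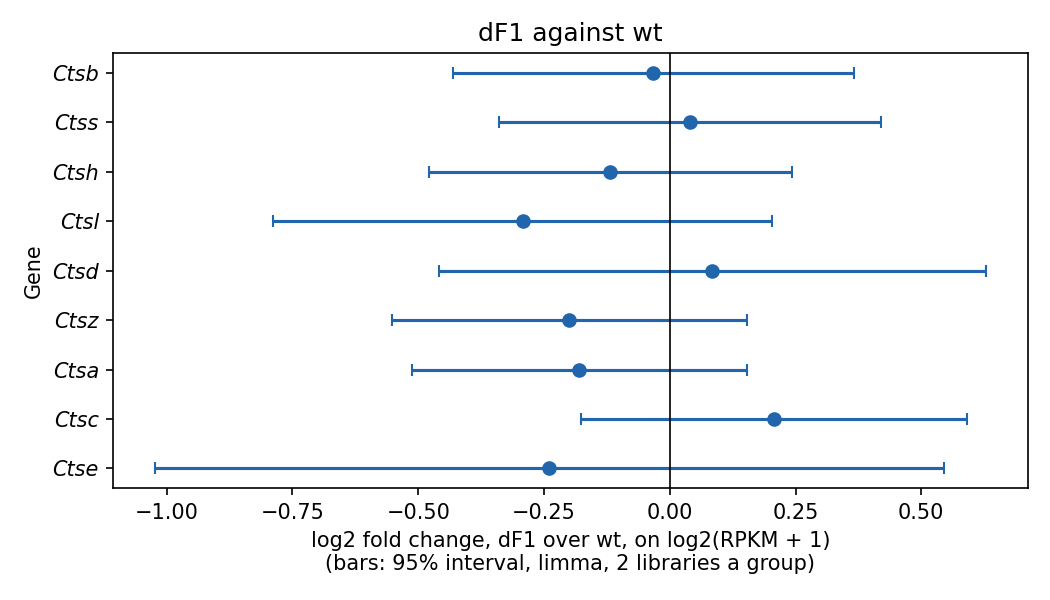
Log2 fold change of dF1 over wt for each cathepsin on log2(RPKM + 1), with limma's 95% interval as bars (2 libraries a group). All 9 intervals include 0, and the widest is that of Ctse (-1.02 to 0.54).

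The other cathepsins of the table had different patterns. Of 13 listed, 3 reached a mean of 1 RPKM and were tested, 0 passed, and 9 were listed at 0 in dF4 and in at least 1 of the other libraries. Ctsg, a neutrophil granule protease, was at 309.8 RPKM in dF4, 7.4 and 12.5 in dF1 and 3.4 and 4.2 in wt (dF1 log2 fold change 1.15, limma adjusted p = 0.468). Ctsw, expressed by NK and cytotoxic T cells, was at 157.6 RPKM in dF4, 255.3 and 253.5 in dF1 and 197.8 and 124.5 in wt (0.69, adjusted p = 0.662). The 8 NK markers summed to 541.8 RPKM in dF4, 1593 and 1422.5 in dF1 and 1294 and 574.8 in wt, and their part in Ctsw was not tested. Ctso was at 29 RPKM in dF4, 27.2 and 20.7 in dF1 and 25.7 and 26.6 in wt. Ctsk, the gene next to Ctss on the chromosome, was at 0.1 RPKM or listed at 0 in every library.

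Inhibitors of cathepsins also differed among themselves. Of 13 listed, 6 were tested and 0 passed. Cst3, the secreted cystatin C, was at 293.7 RPKM in dF4, 353.3 and 437.9 in dF1 and 299.9 and 258 in wt (dF1 log2 fold change 0.50, adjusted p = 0.672, limma). Cstb, a cytosolic inhibitor, was at 8.3 RPKM in dF4 (about 3 reads, 1.70 to 24.1), 29.9 and 29.7 in dF1 and 31.9 and 30.8 in wt. It counted as lower in dF4 by the size rule. Cst7, an endosomal cystatin that acts on Ctsc, was at 71.2 RPKM in dF4, 49.9 and 46.5 in dF1 and 43.4 and 18.7 in wt. The serpins Serpinb1a (79.2 RPKM in dF4, 6.7 and 9.3 in dF1, 5.1 and 4.3 in wt), which inhibits neutrophil proteases, and Serpinb6a (20.9 in dF4, 2.8 and 3.6 in dF1, 4.5 and 3.5 in wt) counted as higher in dF4. Serpinb6a reached the mean of 5 RPKM only through dF4.

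Partners of the cathepsins in class II antigen processing lay above the wt mean in dF4 for 6 of 8 genes, beside 6262 of 12213 transcripts tested. By the size rule 3 of 7 counted as higher in dF4 than in wt and 0 as lower (7.75% and 10.4% over all transcripts). H2-Ob was not countable because of its wt spread. The 3 were Cd74, H2-DMb2 and Ifi30. H2-DMb2 reached the mean of 5 RPKM only through dF4, and Ifi30 barely passed, at 1.002 against the threshold of 1. Between dF1 and wt 0 of 8 passed. Markers of mature B and plasma cells (8 genes) summed to 831.7 RPKM in dF4, 229.4 and 206.8 in dF1 and 390.6 and 198.2 in wt, and their part in these values was not tested. Cd74, the invariant chain, was at 3208 RPKM in dF4, 1426 and 983.9 in dF1 and 1080 and 850.7 in wt. H2-Ob, a modulator of peptide loading in B cells, was at 123.5 RPKM in dF4, 13.9 in both dF1 libraries and 20.6 and 12.5 in wt. H2-DMb2, a chain of the peptide loading catalyst, was at 49.4 RPKM in dF4, 3.2 and 4.9 in dF1 and 3 in both wt libraries. Its near-copy H2-DMb1 was at 13.1 RPKM in dF4, 26 and 23.7 in dF1 and 26.1 and 21.2 in wt, and the division of reads between the pair is uncertain. Lgmn, an asparaginyl protease that processes cathepsin precursors, was at 47.1 RPKM in dF4, 21.2 and 25.2 in dF1 and 31.5 and 34.3 in wt. Its dF1 log2 fold change was -0.49 (SE 0.14) and did not pass (limma adjusted p = 0.575). Ifi30, a thiol reductase of endosomes, was at 264.6 RPKM in dF4, 88.8 and 116.7 in dF1 and 117 and 148.1 in wt.

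Other lysosomal hydrolases were more often lower than higher in dF4. Of 38 tested, 28 were lower than in wt and 10 higher, beside 5945 lower and 6262 higher of 12213 transcripts tested. The median was -0.41, beside 0.02 over all of these. By the size rule 8 of 33 counted as lower and 0 as higher, beside 10.4% and 7.75% over all transcripts. Scpep1, a serine carboxypeptidase, was at 24.1 RPKM in dF4, 164.7 and 180.2 in dF1 and 163.5 and 186.4 in wt. Psap, the precursor of the saposins that help degrade sphingolipids, was at 788.5 RPKM in dF4, 2827.5 and 3144 in dF1 and 2739.5 and 3077 in wt, in the highest of its several rows. Between dF1 and wt 19 hydrolases were higher and 19 lower, with 0 past the test and a median of 0.00036. The largest dF1 differences were those of Acp5 (0.51), Dnase2a (-0.47) and Arsb (0.35), with adjusted p of 0.553 or above in limma's test.

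Of 15 lysosomal membrane proteins tested, 11 were lower in dF4 than in wt and 4 higher (median -0.28), beside 5945 and 6262 of 12213 transcripts. By the size rule 4 of 13 counted as lower and 0 as higher, beside the same 10.4% and 7.75%. Npc1, a cholesterol transporter, was at 15 RPKM in dF4, 96.4 and 92.9 in dF1 and 91 and 97.9 in wt. Cd68, a membrane protein of late endosomes in myeloid cells and pDCs, was at 51.4 RPKM in dF4, 181 and 169.2 in dF1 and 171.4 and 215.9 in wt. Lamp1, an abundant structural protein of the lysosome, was at 146.5 RPKM in dF4, 105.2 and 104.9 in dF1 and 125.1 and 111.7 in wt. The 15 tested subunits of the vacuolar ATPase, the proton pump, were split, with 7 lower and 8 higher in dF4 and a median of 0.14, and by the size rule 1 of 14 counted as higher and 0 as lower. Among 10 genes of sorting to lysosomes, 6 were higher and 4 lower in dF4, with a median of 0.26, and 1 of 9 counted as higher and 2 as lower. Gga2, an adaptor that sorts mannose 6-phosphate receptors, was at 16.7 RPKM in dF4, 5.6 and 8.3 in dF1 and 4.9 and 4.4 in wt, and counted as higher. Of those counted as lower, Scarb2, the receptor of glucocerebrosidase, was at 19.7 RPKM in dF4, 58.6 and 51.4 in dF1 and 57.8 and 51.3 in wt. Gnptab, a subunit of the enzyme that builds the mannose 6-phosphate tag, was at 22.5 RPKM in dF4, 49.7 and 49.1 in dF1 and 51 and 58.7 in wt. In these 3 lists 0 genes passed between dF1 and wt. The lists overlap in function and were chosen with earlier results of these data known, and nothing is called particular to them.

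**Figure D4:**
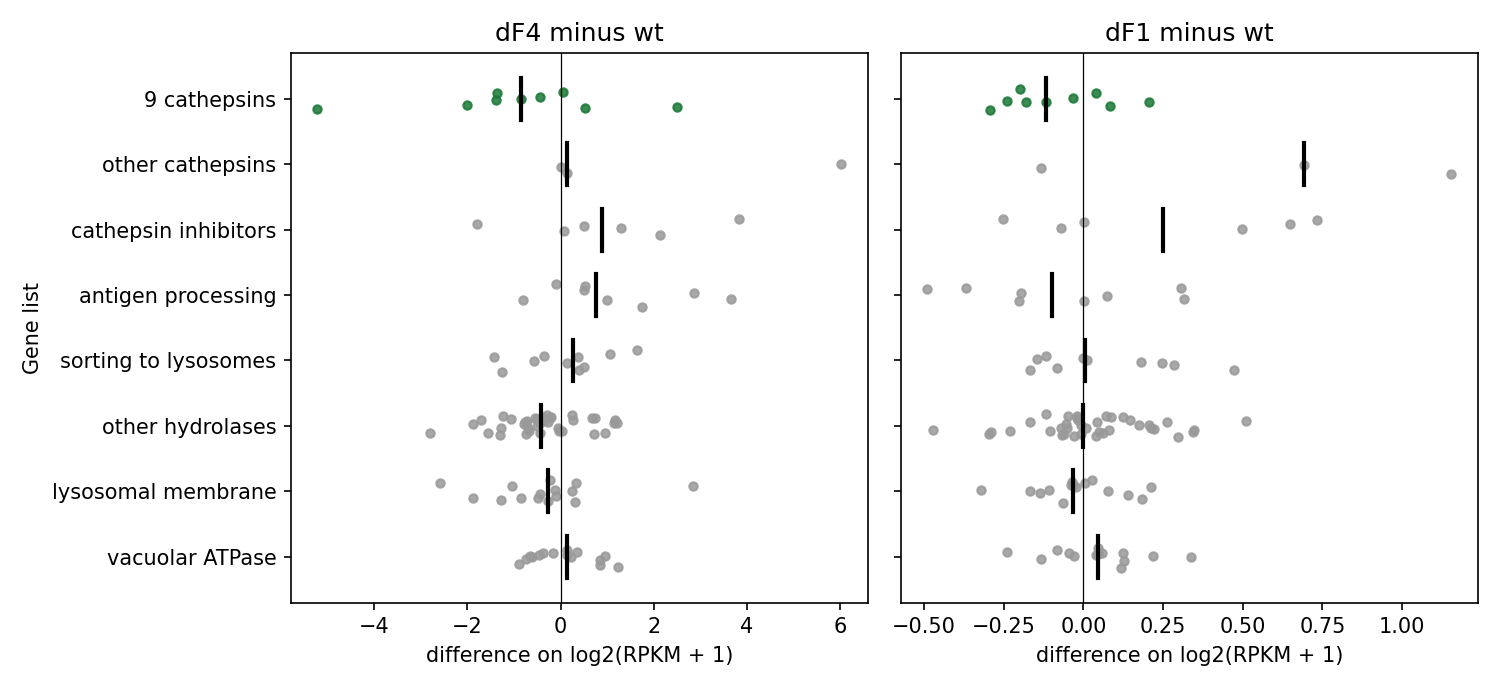
Differences on log2(RPKM + 1) of dF4 minus wt (left) and dF1 minus wt (right) for the 9 cathepsins (green) and 7 lists of related genes (grey), each point a gene that averaged 1 RPKM or more and each black bar the list's median. The axes differ in range. The cathepsins spread from -5.22 (Ctsl) to 2.49 (Ctse) for dF4 and from -0.29 to 0.21 for dF1.

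The transcripts most like single cathepsins in pattern were found by distance between log2(RPKM + 1) profiles over the 5 libraries, each centred on its own mean, among 8759 transcripts averaging 5 RPKM or more. Nearest to Ctsl were Il17rb, Prss30, Ccr9, Tex2 and Cdh1 (distances 0.37 to 0.54). Ccr9, a chemokine receptor of pDCs and lymphoid progenitors, was at 1.9 RPKM in dF4, 104.1 and 105.6 in dF1 and 132.5 and 128.4 in wt. Il17rb, a cytokine receptor subunit, was listed at 0 in dF4 and was at 24.9 and 19.7 RPKM in dF1 and 30.1 and 34.5 in wt. Nearest to Ctse were Lmo4, Csf2ra, Slc16a3, Tmem180 and Fam132a (0.33 to 0.48). Csf2ra, a subunit of the receptor for the growth factor GM-CSF, was at 98.6 RPKM in dF4, 10 and 12.7 in dF1 and 12.3 and 21.8 in wt. Nearest to Ctsb, the most abundant of the 9 by mean, were Qdpr, Arhgap12, Gnpda2, Nceh1 and Tyrobp (0.12 to 0.15). Tyrobp, a signalling adaptor of NK and myeloid cells and pDCs, was at 407.2 RPKM in dF4, 1463 and 1449 in dF1 and 1702.5 and 1428.5 in wt. With 5 libraries, and dF4 far from the rest, these distances are set mostly by the dF4 value. Lmo4, Slc16a3, Tmem180 and Fam132a were below 5 RPKM in every dF1 and wt library and passed the filter only through dF4. That the neighbours of Ctse are highest in dF4 was therefore set by how they were chosen.

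**Figure D5:**
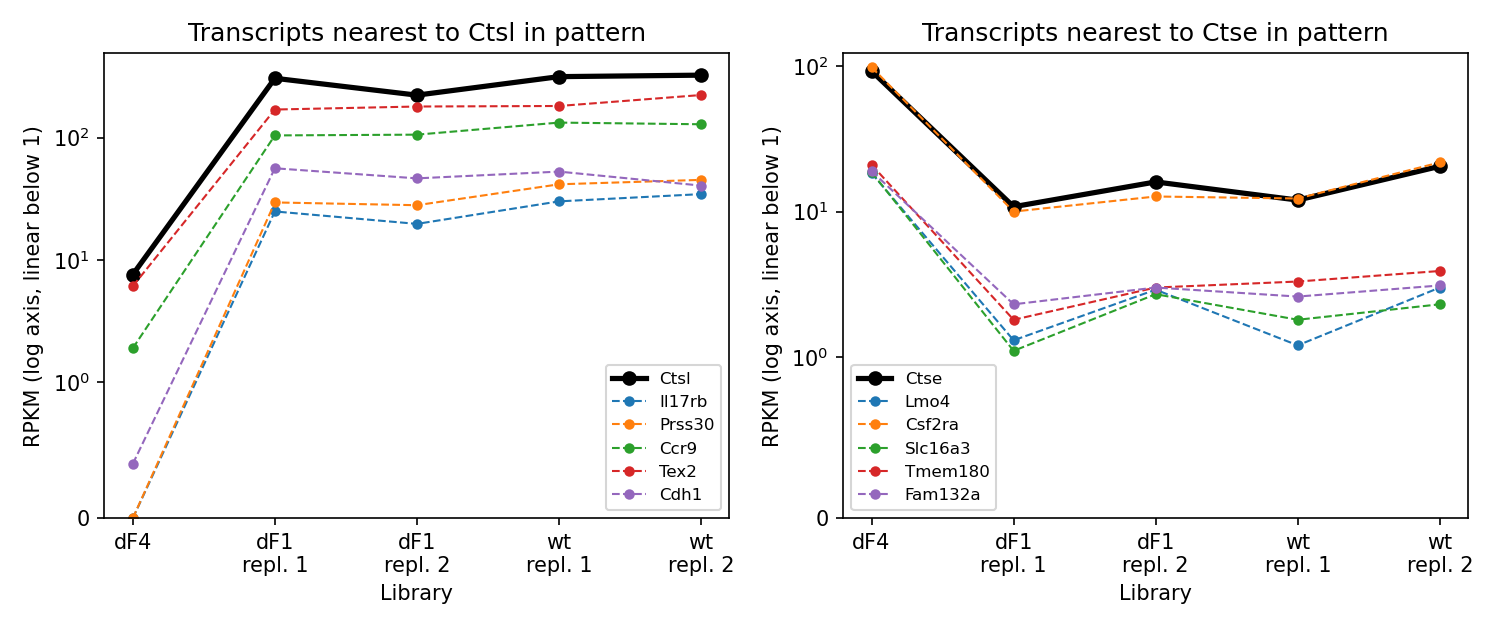
RPKM in each library of Ctsl (left, black) and Ctse (right, black) and of the 5 transcripts nearest to each in pattern (dashed), on a log axis that is linear below 1; lines join the libraries for reading only. In the left panel all 6 transcripts are lowest in dF4 (Ctsl 7.6 RPKM), and in the right panel all 6 are highest there (Ctse 92.8 RPKM). Both follow from choosing the transcripts by their pattern.

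Promoters of 6 of the 9 genes were present in the RefSeq table used (GRCm38.p6), as 7 windows, of which the 250 bases before each start were searched. The palindrome CACGTG, the E-box core bound by the lysosomal regulator TFEB among many other factors, occurred in the windows of Ctsd, Ctsl and Ctsa (the second of its 2), against 6.02% of all 32851 windows. The Ctsl window belongs to a start 252 bases inside the outermost one and the Ctsa window to one 901 bases inside. TGGGAA, a core bound by Ikaros, was searched on both strands, did not occur in the 7 windows and was present in 21.6% of all windows. Such matches are descriptions of sequence. The window of Ctsd, the cathepsin whose level in dF4 lay between the wt libraries, is shown because it alone held 2 copies (chr7:142387828-142388077, minus strand, CACGTG in capitals).
Ctsd: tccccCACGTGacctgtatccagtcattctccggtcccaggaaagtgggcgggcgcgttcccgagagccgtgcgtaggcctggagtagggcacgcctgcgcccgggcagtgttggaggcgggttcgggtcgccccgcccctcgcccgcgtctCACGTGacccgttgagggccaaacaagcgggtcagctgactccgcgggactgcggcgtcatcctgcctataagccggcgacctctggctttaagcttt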

How the data were processed

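Libraries of dF4 (1), dF1 (2) and wt (2) cells were prepared by Illumina TruSeq after mRNA enrichment, per the labels' protocols. The authors deposited RPKM for each RefSeq transcript, rounded to 1 decimal, per the file headers. TopHat, bedtools and build mm9 are named in the submitters' processing notes. For counting rules and strand use, the sources used here give nothing. One line naming no gene was left out, and 0 columns of samples went unused.

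Values were analysed as log2(RPKM + 1), a scale on which fold changes of low transcripts are understated. limma 3.58.1 under R 4.3.3 (eBayes with a trend, two-sided) tested dF1 against wt over 12213 transcripts averaging 1 RPKM or more, adjusted by Benjamini-Hochberg at 0.05, and checked on simulated data. The dF4 library was described by size, without a test, with exact 95% Poisson intervals on its estimated reads. A gene entered by its transcript of highest mean. The members and lists were chosen with earlier results of these data known. Named genes from each list are up to 3 with the largest dF4 and up to 3 with the largest dF1 difference at a mean of at least 5 RPKM, of which not all are printed. H2-DMb1, Siglech, Xist, Eif2s3y and overlapping or neighbouring genes were added after their values were seen. Tfeb, Tfe3 and Tfec were not analysed here. Alternatives were other pseudocounts, filters, scalings, robust variances, a replicate block and leaving out libraries.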

Additional observations from a re-analysis of the deposited data

How the results depend on the processing

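Between dF1 and wt, 0 of 9 cathepsins passed under each of 13 alternatives. The count over all transcripts was 245 with no filter, 25 with the filter at 5 RPKM and 33 with robust variances, against 0 as reported, and 0 under the others (the cause was not tested). Directions turned for Ctsd and Ctss under quantile normalization (-0.013 and -0.11). With libraries left out, log2 fold changes ranged from -0.52 to -0.06 for Ctsl, 0.04 to 0.38 for Ctsc, -0.093 to 0.028 for Ctsb, -0.15 to 0.32 for Ctsd, -0.045 to 0.13 for Ctss and -0.60 to 0.12 for Ctse. The replicate block called 0 transcripts and 0 cathepsins (Ctsl adjusted p = 0.713, limma). The numbers are not stated to pair libraries, and the differences between replicates 2 and 1 correlated at 0.30 across transcripts between dF1 and wt. 

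For dF4, members counted as lower than wt numbered 2 at a size threshold of 2 and 4 or 5 otherwise, and those lower than dF1 numbered 1 at that threshold and 3 or 4 otherwise. Ctse counted as higher than dF1 with a pseudocount of 5, quantile normalization or median centring (1 each), and higher than either group with 1 of its libraries left out, when the spread limit no longer applies (1 in each case, against 0 as reported). Transcripts lower were 533 against wt and 544 against dF1 with a pseudocount of 5. At a size threshold of 2, 175 were higher and 249 lower than wt, and 147 and 258 than dF1. At a mean of at least 1 RPKM, 1287 were higher and 1306 lower than wt, and 1297 and 1331 than dF1. With libraries left out, those higher than wt ranged from 769 to 992, and than dF1 from 723 to 916. The dF4 depth of an estimated 600258 reads limits low values such as Ctsl, and the absence of a dF4 replicate limits all.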

Other observations

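The RPKM of inhibitors relative to Ctsl differed between libraries. Such ratios are per length and are unchanged by a constant factor on a library. In dF4 they restate the low Ctsl level, which was known when the set was chosen. Cst3 itself, at 293.7 RPKM in dF4, lay between the wt libraries (299.9 and 258). These are ratios of RNA and give no balance of enzyme and inhibitor. The dF4 ratios rest on few reads and are given with exact 95% intervals for counting error. Cst3 was at 38.6 times Ctsl in dF4 (19.8 to 86.4), 1.16 and 1.97 times in dF1 and 0.953 and 0.798 times in wt. Cstb, with about 3 reads in dF4, was at 1.09 times Ctsl there (0.190 to 4.37), 0.0980 and 0.134 times in dF1 and 0.101 and 0.0952 times in wt. Ctsl relative to the pDC lectin Siglech was at 1.38 in dF4 (0.468 to 4.07, from about 9 and 8 reads), 0.388 and 0.275 in dF1 and 0.336 and 0.386 in wt.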
